A study of Mus musculus with 12 samples.

Results

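The genes described here bring peptides from inside the cell to its surface on MHC class I molecules. They are 10 genes chosen by name for their roles, with earlier results of these data known. The list holds the heavy chains H2-K1 and H2-D1, the light chain B2m, the peptide transporter subunits Tap1 and Tap2, the loading factor Tapbp, the immunoproteasome subunits Psmb8, Psmb9 and Psmb10, and the transcriptional activator Nlrc5. All 10 were found among the 32544 rows of the count table, and all 10 were among the 14279 genes with enough counts to test. They were measured by bulk, poly(A)-selected RNA sequencing of 3T3 cells, a mouse fibroblast line. There were 4 groups of 3 libraries each. Untreated cells made up the first, and the others had been exposed for 24 h to extracellular vesicles (EVs), small membrane-bound particles that cells release, from the human breast cancer line MDA-MB-468. The donor cells were controls (shCon), had CRIPTO knocked down (shCr) or overexpressed it (CrOE), CRIPTO being a membrane-anchored signalling co-receptor. The EV dose is not in the labels. Nothing in the labels says that the 3 libraries of a group came from separate cultures, so p-values measure the spread between these libraries, which may be technical.

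Class I molecules are made by a production line with distinct steps. Proteins are cut by the proteasome, and under interferon its constitutive catalytic subunits (from Psmb5, Psmb6 and Psmb7) are replaced in new particles by immunoproteasome subunits (from Psmb8, Psmb9 and Psmb10). The peptides are pumped into the endoplasmic reticulum by TAP, a heterodimer of the Tap1 and Tap2 products, and tapasin (Tapbp) holds empty class I molecules beside it until a peptide binds. The finished molecule is a heavy chain bound to beta-2 microglobulin (B2m). These genes are driven by interferon signals, by NF-kappa B and by NLRC5, which acts through proteins bound to promoter elements that include the Y box. In fibroblasts the pathway runs at a basal level that interferon raises.

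The stretches just before the starts of the classical heavy chain genes and B2m are shown because elements read by these regulators are known to lie there. They were taken from RefSeq promoter windows on build GRCm38.p6, which had entries for 8 of the 10 genes, and only the 250 bases before the start were used. Capitals mark exact matches, on either strand, to the motifs searched: the ISRE core GAAANNGAA, the STAT site TTCNNNGAA, the kappa B letters GGGATTCCC and GGGANTTTC, and the Y box CCAAT. H2-K1 has 2 annotated starts 14 bases apart, and the window of the downstream start is given (chr17:34000334-34000583, minus strand). The windows of H2-D1 (chr17:35262844-35263093, plus strand) and B2m (chr2:122147437-122147686, plus strand) follow. Tap1 and Psmb9 are transcribed away from each other, and the 225 bases between their starts (chr17:34187331-34187555) are shown on the strand of Tap1.
H2-K1: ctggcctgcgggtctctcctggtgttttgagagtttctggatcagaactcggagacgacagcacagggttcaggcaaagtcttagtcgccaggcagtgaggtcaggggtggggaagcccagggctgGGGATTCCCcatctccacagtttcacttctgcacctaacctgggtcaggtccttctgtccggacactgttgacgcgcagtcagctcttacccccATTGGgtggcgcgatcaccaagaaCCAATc
H2-D1: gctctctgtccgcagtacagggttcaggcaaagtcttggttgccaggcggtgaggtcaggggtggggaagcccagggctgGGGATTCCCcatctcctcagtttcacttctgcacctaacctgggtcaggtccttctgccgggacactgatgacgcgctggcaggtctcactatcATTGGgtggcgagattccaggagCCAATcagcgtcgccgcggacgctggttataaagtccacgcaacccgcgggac
B2m: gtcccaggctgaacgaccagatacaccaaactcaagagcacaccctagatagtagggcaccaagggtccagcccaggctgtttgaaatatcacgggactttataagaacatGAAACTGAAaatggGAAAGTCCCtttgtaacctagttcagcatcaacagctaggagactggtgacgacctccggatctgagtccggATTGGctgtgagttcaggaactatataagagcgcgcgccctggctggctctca
Tap1 and Psmb9: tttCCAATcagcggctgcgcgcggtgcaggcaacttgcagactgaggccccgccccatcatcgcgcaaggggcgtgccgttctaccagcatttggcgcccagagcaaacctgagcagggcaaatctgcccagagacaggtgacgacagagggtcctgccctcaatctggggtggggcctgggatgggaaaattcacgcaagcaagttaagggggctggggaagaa

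The windows of H2-K1 and H2-D1 were alike, with 172 identical bases of 191 aligned (90.0%). Both held GGGATTCCC, starting 124 bases before the start of H2-K1 and 170 before that of H2-D1, and both held 2 Y boxes closer to the start. The window of the upstream H2-K1 start held GGGATTCCC and only 1 Y box. GGGATTCCC was in 0.301% of all 32851 windows of 250 bases and at least 2 Y boxes in 10.1%. B2m held the ISRE core (in 7.13% of all windows), GGGANTTTC (0.941%) and a Y box (33.8%). These 3 genes were the ones with a kappa B match among the 8. Tapbp held 2 Y boxes, Psmb8 a STAT site (in 7.02% of all windows), and Psmb10 none of the motifs. Tap1 and Psmb9 shared 1 Y box, which ends 4 bases before the start of Psmb9. A match is a string of letters in the C57BL/6J reference and not a measured binding site. Sites with other letters were missed, so a window without a match may still hold an element. The ISRE core was searched with GAAA before GAA, and the other order was not searched. Both heavy chain windows hold that other order with the same spacing, closer to the start than GGGATTCCC and on the strand opposite to the one shown. How often it occurs in all windows was not counted.

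**Figure D1:**
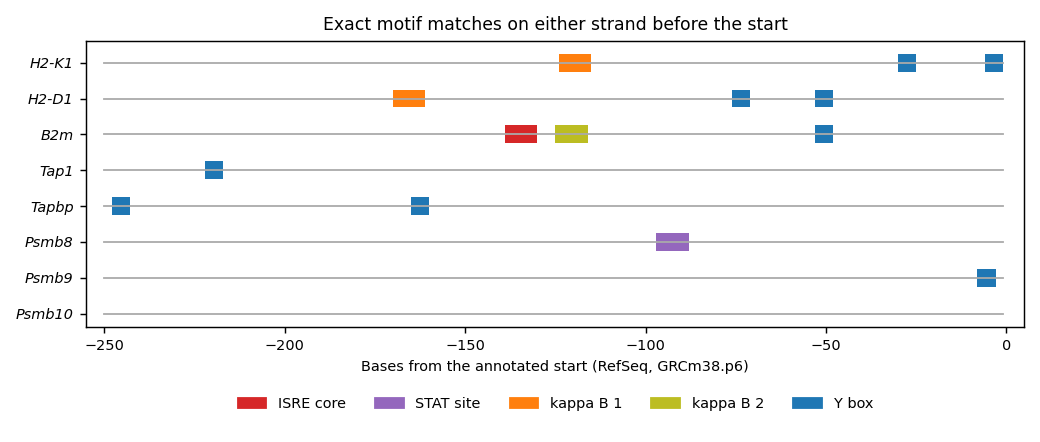
Exact motif matches in the 250 bases before the annotated starts of class I presentation genes, by distance in bases from the start; each block is a match on either strand. H2-K1, H2-D1 and B2m hold kappa B matches, 6 of the 8 genes with an entry hold a Y box, and Psmb10 holds no match.

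Libraries held 25960054 to 37774020 estimated counts. Tdgf1, the mouse gene for CRIPTO, had 0 to 3 counts in every library, and the donor cells were not analysed here, so CRIPTO in the donors was not checked. Fibroblast markers were abundant in untreated cells, with Col1a2 at 4919 CPM (counts scaled to a common library size) and Col1a1 at 4535. The 12 fibroblast markers summed to 21650 to 23040 CPM there, 27010 to 27360 with shCon EVs, 17000 to 19390 with shCr EVs and 9453 to 9859 with CrOE EVs. Of 10 epithelial markers 3 could be tested, and Epcam had 0 counts in every library. The 10 summed to 1.28 to 2.02 CPM in untreated cells, 1.07 to 1.44 with shCon EVs, 1.09 to 1.70 with shCr EVs and 2.56 to 3.52 with CrOE EVs, where 2 were called higher (Krt18 and Cldn4). Of 6 endothelial markers 4 could be tested, and Cldn5 had 0 counts in every library. The 6 summed to 2.21 to 3.04, 5.48 to 6.12, 4.195 to 5.58 and 17.4 to 20.2 CPM in the same order, and all 4 were higher with CrOE EVs, Vwf most (from 1.82 to 16.0 CPM, adjusted p = 1.76e-09, edgeR). In bulk RNA, fewer cells of a type and less RNA per cell cannot be told apart.

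With shCon EVs, 9 of the 10 genes were higher than in untreated cells and 0 were lower, with a median log2 fold change of 0.61. Among all tested genes 18.0% were called higher and 20.2% lower, with a median of 0.0069. A call is an adjusted p-value under 0.05 in edgeR's quasi-likelihood F-test, adjusted after Benjamini and Hochberg over all 14279 genes. With shCr EVs, 9 of the 10 were higher and 0 lower (median 0.62), against 18.4% higher and 18.8% lower among all genes (median 0.020). With CrOE EVs the direction was the opposite: 9 of the 10 were lower than in untreated cells and 0 higher (median -1.82), against 37.0% lower and 36.7% higher among all genes (median 0.0078). The comparisons share their untreated libraries.

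**Figure D2:**
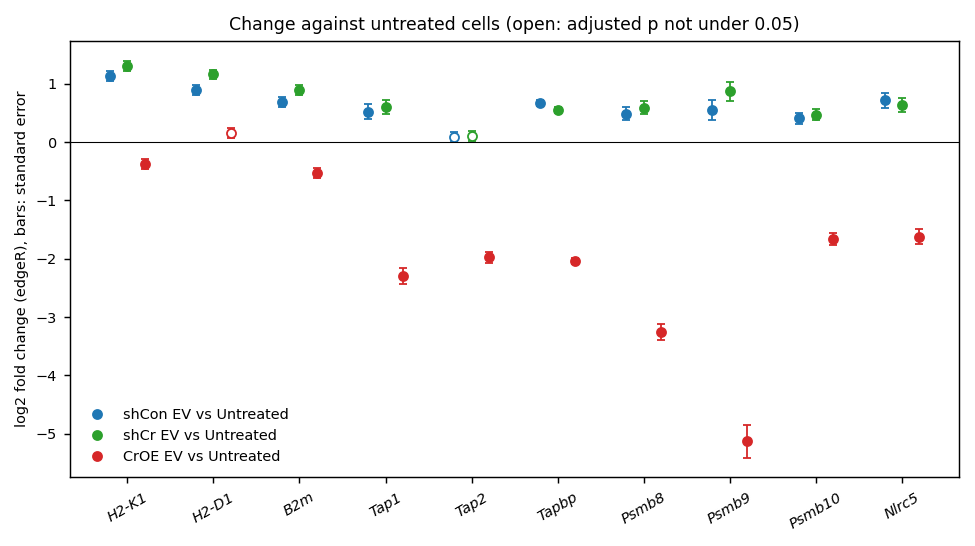
Log2 fold changes of the 10 genes against untreated cells for each kind of EV (n = 3 libraries a group; points are edgeR estimates, bars their standard errors, open points are not called). With CrOE EVs the values run from 0.16 for H2-D1 to -5.13 for Psmb9, and with the other EVs from 0.088 for Tap2 to 1.31 for H2-K1.

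Set against the other EVs, all 10 genes were lower with CrOE EVs than with shCon EVs (median -2.20), where 36.1% of all genes were lower and 36.5% higher. All 10 were also lower than with shCr EVs (median -2.20), where 37.0% of all genes were lower and 36.9% higher. Between shCr and shCon EVs edgeR called 0 of the 10, where 5.22% of all genes were higher with shCr EVs and 3.51% lower. In that comparison 3 of the 10 had an unadjusted p under 0.05 in edgeR. H2-D1 (0.27) and B2m (0.20) were higher with shCr EVs and Tapbp (-0.12) was lower. The share of all genes under that unadjusted threshold was not counted. DESeq2 called 1 of the 10, H2-D1, where it called 879 of 13723 genes higher and 691 lower. With CrOE EVs fibroblast markers fell in the same libraries, 11 of 12 against untreated cells, 12 against shCon EVs and 11 against shCr EVs, and the endothelial and epithelial markers named above rose against untreated cells. Against untreated cells 37.0% of all genes were lower with CrOE EVs and 36.7% higher. The part of the fibroblast, endothelial and epithelial markers in the falls of the class I genes was not tested.

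H2-K1 encodes the K heavy chain, which shows peptides to CD8 T cells. It was at 220.5, 238 and 211 CPM in the untreated libraries and at 490.5, 494 and 487 with shCon EVs. With shCr EVs it was at 563, 516 and 585 CPM, and with CrOE EVs at 148, 182 and 189. The libraries of shCon and shCr EVs all lay above the untreated ones and those of CrOE EVs all below them. On the log2 scale the rise was 1.14 (SE 0.085, adjusted p = 5.52e-07, edgeR) with shCon EVs and 1.31 (SE 0.085, adjusted p = 1.45e-07, edgeR) with shCr EVs, the largest rise among the 10 genes in each case. The fall with CrOE EVs was small beside it (-0.37, SE 0.084, adjusted p = 0.00157, edgeR).

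H2-D1, the D heavy chain, was at 330.4, 346 and 319 CPM in untreated cells. It reached 628, 626 and 589.9 CPM with shCon EVs (0.89, SE 0.081, adjusted p = 3.26e-06, edgeR) and 778, 683 and 765 with shCr EVs (1.16, SE 0.082, adjusted p = 2.90e-07, edgeR). These EV groups did not overlap, yet their difference missed the threshold (0.27, SE 0.081, adjusted p = 0.0574, edgeR). It was a call by DESeq2 (adjusted p = 0.023) and also in edgeR once shCr EV replicate 2 was left out (adjusted p = 0.0429). With CrOE EVs H2-D1 was at 319, 394 and 394 CPM, a range that met the untreated one at its low end. It was the gene of the 10 without a call there (0.16, SE 0.081, adjusted p = 0.1, edgeR), and without CrOE EV replicate 1, the lowest library, it was called higher (0.25, adjusted p = 0.00487, edgeR).

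B2m, the light chain common to class I molecules, had the highest level of the 10 per length of exon in every group, 1026 ± 24.3 CPM per kb in untreated cells (SD, n = 3). H2-D1 followed at 129 ± 5.20 CPM per kb, then Tapbp at 107 ± 1.45 and H2-K1 at 76.0 ± 4.61, each apart from its neighbour by more than the SDs. The SDs do not cover the choice of exon length. In CPM without length Tapbp was above H2-D1, at 388 against 332 in untreated cells, so their order depends on the lengths used. In CPM, B2m was at 892, 898 and 859 in untreated cells and 1444, 1429 and 1391 with shCon EVs (0.69, SE 0.084, adjusted p = 4.01e-05, edgeR). With shCr EVs it was at 1853, 1455 and 1597 CPM, above the shCon range in every library, with a fold change between these groups of 0.20 and no call (adjusted p = 0.173, edgeR). With CrOE EVs it was at 548, 651 and 642 CPM, below every untreated library (-0.52, SE 0.084, adjusted p = 9.05e-05, edgeR).

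**Figure D3:**
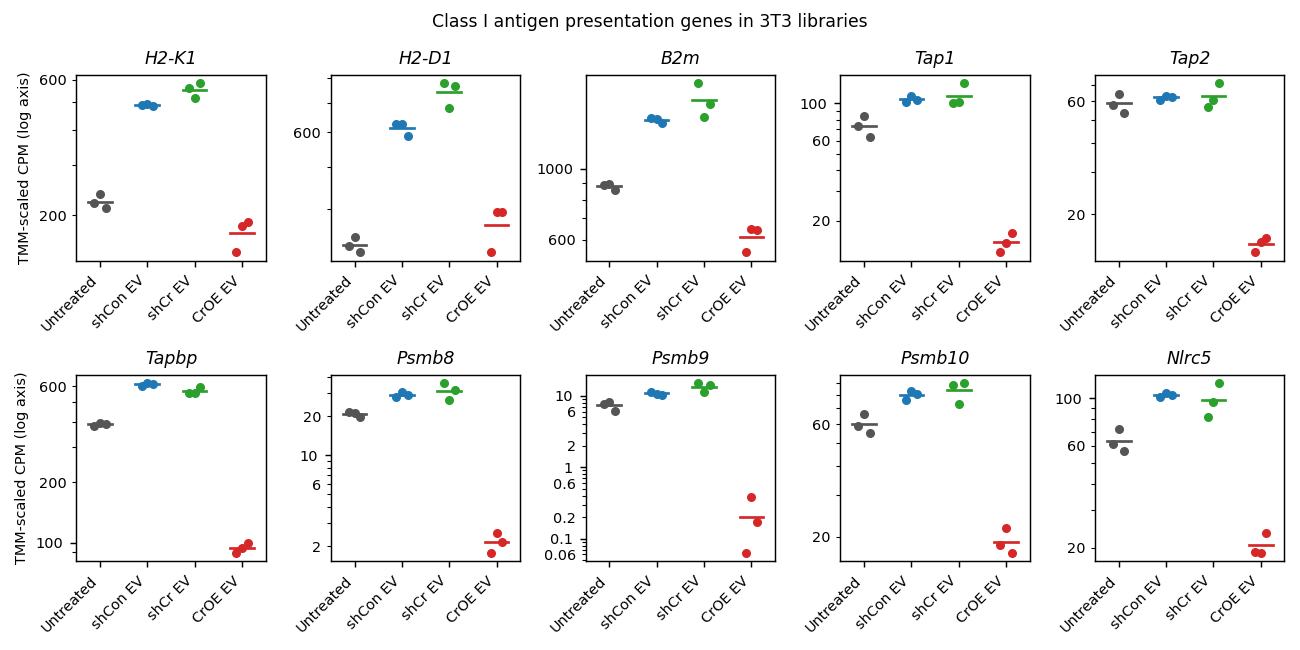
TMM-scaled CPM of the 10 genes in each of the 12 libraries (log axes, each panel with its own range; points are libraries, lines are group means). Except for H2-D1, the 3 CrOE EV libraries are the lowest of the 12 in every panel.

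Of the transporter subunits, Tap1 was called higher with shCon and shCr EVs and Tap2 was not, and both fell with CrOE EVs. Tap1 was at 72.9, 83.9 and 63.1 CPM in untreated cells, 102, 110.2 and 104 with shCon EVs (0.52 (SE 0.12, adjusted p = 0.00506, edgeR)) and 99.6, 101 and 132 with shCr EVs (0.60, SE 0.12, adjusted p = 0.00201, edgeR). Its partner Tap2 was at 58.0, 64.6 and 53.5 CPM in untreated cells, 61.0, 63.4 and 62.7 with shCon EVs and 56.8, 60.6 and 71.6 with shCr EVs, ranges that overlapped. Its log2 fold changes were 0.088 (SE 0.090, adjusted p = 0.474, edgeR) and 0.10 (SE 0.089, adjusted p = 0.395, edgeR), which made it the gene without a call in those comparisons. The difference between the changes of Tap1 and Tap2 was itself not tested. Per length of exon the subunits stood at 13.4 ± 1.90 CPM per kb for Tap1 and 15.5 ± 1.47 for Tap2 in untreated cells (SD, n = 3), which their spread does not separate.

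With CrOE EVs Tap1 was at 13.0, 14.9 and 16.9 CPM and Tap2 at 13.8, 15.2 and 15.9, far below every untreated library. The log2 fold changes were -2.29 (SE 0.13, adjusted p = 5.15e-09, edgeR) for Tap1 and -1.97 (SE 0.096, adjusted p = 8.17e-10, edgeR) for Tap2. Tapbp, which bridges TAP and the heavy chain, had tight replicates, at 382, 392 and 389 CPM in untreated cells. It was at 603, 620.2 and 619 CPM with shCon EVs (0.66, SE 0.052, adjusted p = 7.45e-07, edgeR) and 552, 553 and 595 with shCr EVs (0.55, SE 0.052, adjusted p = 3.72e-06, edgeR). With CrOE EVs it was at 89.3, 94.1 and 99.6 CPM (-2.04, SE 0.054, adjusted p = 2.84e-12, edgeR), with no overlap between groups.

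The immunoproteasome subunits included the genes with the largest falls. Psmb8, which takes the place of Psmb5, was at 21.4, 21.1 and 19.8 CPM in untreated cells. It was at 27.8, 30.8 and 28.9 CPM with shCon EVs (0.49, SE 0.11, adjusted p = 0.00332, edgeR) and 35.7, 26.5 and 31.6 with shCr EVs (0.59, SE 0.11, adjusted p = 8.33e-04, edgeR). With CrOE EVs it was at 1.78, 2.53 and 2.16 CPM (-3.26, SE 0.13, adjusted p = 1.65e-10, edgeR), 9.58-fold lower than in untreated cells.

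Psmb9, which takes the place of Psmb6, had the lowest level of the 10 genes per length of exon in each group. Its untreated libraries held 211, 213 and 169 counts, or 7.72, 8.12 and 6.22 CPM. With shCon EVs it was at 11.4, 10.8 and 10.2 CPM (0.55 (SE 0.17, adjusted p = 0.0217, edgeR)), a call that was lost without untreated replicate 3 (adjusted p = 0.0971), shCon EV replicate 1 (0.0742) or shCon EV replicate 2 (0.0597). With shCr EVs it was at 15.0, 11.3 and 14.1 CPM (0.87, SE 0.17, adjusted p = 0.00118, edgeR). The CrOE EV libraries held only 2, 13 and 6 counts. The fitted log2 fold change there was -5.13 (SE 0.28, adjusted p = 2.87e-09, edgeR), and its size turned on replicate 2: without that library it was -5.90 against untreated cells, -6.45 against shCon EVs and -6.77 against shCr EVs.

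Psmb10, which takes the place of Psmb7, had the highest level of these subunits, 35.3 ± 3.34 CPM per kb of exon in untreated cells (SD, n = 3), against 6.14 ± 0.250 for Psmb8 and 2.01 ± 0.274 for Psmb9. It was at 59.1, 66.4 and 55.2 CPM in untreated cells, 75.6, 83.0 and 80.8 with shCon EVs (0.41, SE 0.099, adjusted p = 0.00607, edgeR) and 88.0, 73.3 and 89.4 with shCr EVs (0.47, SE 0.099, adjusted p = 0.00214, edgeR). Every library of these EV groups lay above the untreated ones. Its CrOE EV libraries were at 18.4, 21.7 and 17.1 CPM (-1.66, SE 0.10, adjusted p = 1.02e-08, edgeR).

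Since each subunit replaces a constitutive one, the balance of a pair was taken as a ratio within a library, which does not depend on scaling between libraries. Per length of exon there were 11.6 counts of Psmb8 for every 100 of Psmb5 in untreated cells, 18.2 with shCon EVs, 18.6 with shCr EVs and 1.00 with CrOE EVs (from the mean log2 ratio, n = 3). Of the 31-base stretches of Psmb5, 71.7% occur in another gene, so the size of that ratio is uncertain. The log2 ratio of Psmb9 to Psmb6 was -5.07 ± 0.20 in untreated cells (SD, n = 3), -4.28 ± 0.090 with shCon EVs, -4.11 ± 0.17 with shCr EVs and -10.56 ± 1.15 with CrOE EVs. For Psmb10 there were 75.1 counts per 100 of Psmb7 in untreated cells, 131 with shCon EVs, 129.7 with shCr EVs and 30.7 with CrOE EVs. The level of each ratio depends on the exon lengths used, while log2 differences between groups do not. In CPM without length, Psmb10 was below Psmb7, at 60.2 against 161 in untreated cells. With shCon EVs it was at 79.8 against 122 and with shCr EVs at 83.6 against 130.2. Psmb8 was at 20.8 CPM against 47.8 for Psmb5 in untreated cells. An exact permutation test over the 4 groups (n = 3 each, one-sided for a large spread between group means) gave an adjusted p of 0.00409 for each pair, over 21 tests. For 3 libraries against 3 the exact two-sided p cannot go below 0.1. Every comparison of groups reached that limit except shCr with shCon EVs, for which the exact p was 0.8, 0.3 and 0.9 for the pairs in the order given.

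**Figure D4:**
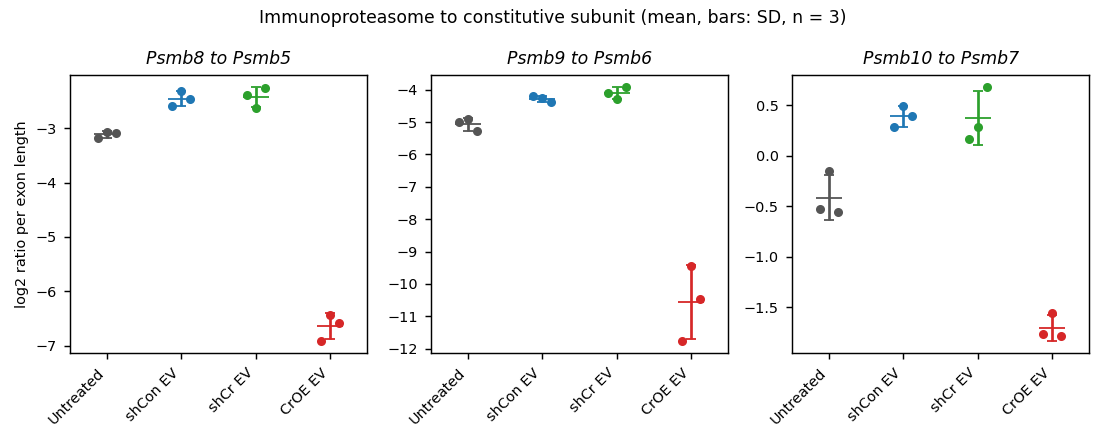
Log2 ratio of each immunoproteasome subunit to the constitutive subunit it replaces, per length of exon, in the 12 libraries (points; bars are mean and SD, n = 3). In each panel the CrOE EV libraries lie lowest and those of shCon and shCr EVs above the untreated ones.

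Of the constitutive partners, Psmb5 was at 47.8 ± 3.48 CPM in untreated cells (SD, n = 3) and 57.1 ± 1.27 with CrOE EVs (0.26, SE 0.078, adjusted p = 0.00952, edgeR), a call lost without untreated replicate 3 (adjusted p = 0.0509). Psmb6 fell with shCon EVs (-0.23, SE 0.067, adjusted p = 0.0162, edgeR) and rose with CrOE EVs (0.17, SE 0.066, adjusted p = 0.0383, edgeR). The call with shCon EVs was lost without untreated replicate 1 or shCon EV replicate 2 (highest adjusted p = 0.0589), and that with CrOE EVs under 8 alternatives, among them each library left out except CrOE EV replicate 3 (highest adjusted p = 0.118). Psmb7 fell from 161 ± 11.6 CPM to 122 ± 3.39 with shCon EVs (-0.40, SE 0.10, adjusted p = 0.0088, edgeR), where Psmb10 was higher by 0.41, to 130.2 ± 24.0 with shCr EVs (adjusted p = 0.0335, a call lost in a model of only those 2 groups and without untreated replicate 1 or 3 or shCr EV replicate 2 or 3) and to 124 ± 5.06 with CrOE EVs (adjusted p = 0.00506). Of 21 genes for the constitutive proteasome, its activators and its assembly, 1 was higher and 10 lower with shCon EVs, 2 higher and 6 lower with shCr EVs, and 7 higher and 8 lower with CrOE EVs. The count lower with shCon EVs was 5 without untreated replicate 1 and 6 without shCon EV replicate 2. Of all genes 2417 of 14549 and 2291 of 14476 were lower in those fits. The count lower with shCr EVs was 17 without shCr EV replicate 1, 2 without replicate 2, 3 without replicate 3, 3 without untreated replicate 3 and 2 in a model of only those 2 groups. Of all genes 3456 of 14566, 2289 of 14477, 2342 of 14474, 2233 of 14551 and 1978 of 13625 were lower there, in that order. With all libraries in 1 model 18.0% of all tested genes were higher and 20.2% lower with shCon EVs, and 18.4% and 18.8% with shCr EVs. With CrOE EVs it was 36.7% and 37.0%, which the 7 and 8 of 21 are close to. Psme1 and Psme2 encode PA28, an interferon-induced activator that opens the proteasome. With CrOE EVs Psme1 fell from 127 ± 4.88 to 46.2 ± 1.24 CPM (-1.46, SE 0.057, adjusted p = 8.91e-11, edgeR) and Psme2 from 117 ± 8.05 to 56.1 ± 3.83 (-1.06, SE 0.10, adjusted p = 6.89e-07, edgeR). Psme3, their nuclear relative, rose from 73.9 ± 0.528 to 139 ± 3.07 CPM (0.91, SE 0.044, adjusted p = 7.64e-10, edgeR).

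Nlrc5, the activator of class I transcription, was at 61.2, 71.7 and 56.6 CPM in untreated cells and 101, 106 and 104 with shCon EVs (0.72, SE 0.13, adjusted p = 6.65e-04, edgeR). With shCr EVs its libraries were more spread, at 81.6, 95.9 and 118 CPM (0.64, SE 0.13, adjusted p = 0.00139, edgeR), and still all above the untreated ones. The CrOE EV libraries were at 19.1, 19.0 and 23.6 CPM (-1.62, SE 0.13, adjusted p = 1.42e-07, edgeR), below every library of the other groups. Over the 12 libraries Nlrc5 had the highest correlation of the 10 genes with the mean of the other members (r = 0.982 on log2 CPM). Tapbp (0.981), Tap1 (0.980) and Psmb10 (0.979) were almost level with it, and H2-D1 had the lowest (0.705). The points share their 4 groups, so these values describe mainly the differences between groups.

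Other regulators of these genes came from a list of 34, of which 31 could be tested. With shCon EVs 6 were higher and 9 lower, with shCr EVs 7 and 7, and with CrOE EVs 7 and 19. Without shCon EV replicate 1 the count lower with shCon EVs was 5, and without shCr EV replicate 1 the count higher with shCr EVs was 12. In those fits 2348 of all 14565 tested genes were lower and 3242 of 14566 higher. With all libraries the shares of all tested genes, higher and lower, were 18.0% and 20.2%, 18.4% and 18.8%, and 36.7% and 37.0% for shCon, shCr and CrOE EVs. Irf7, an interferon-induced factor, was at 81.2 ± 13.1 CPM in untreated cells (SD, n = 3), 135 ± 13.0 and 149 ± 27.0 with shCon and shCr EVs, and 6.11 ± 1.09 with CrOE EVs, a call in each case (adjusted p = 0.0016, 4.01e-04 and 5.04e-10, edgeR). Irf1, which binds the ISRE of class I genes, was at 108 ± 9.72 CPM in untreated cells and not called with shCon EVs (102 ± 3.22, adjusted p = 0.345, edgeR) or shCr EVs (105 ± 7.06, adjusted p = 0.675). With CrOE EVs it fell to 25.3 ± 0.818 CPM (-2.10, SE 0.074, adjusted p = 3.38e-11, edgeR).

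The RFX complex, through which NLRC5 reaches DNA, was mixed with CrOE EVs. Rfx5 fell from 33.8 ± 4.26 to 18.1 ± 1.18 CPM (-0.90, SE 0.14, adjusted p = 5.26e-05, edgeR), and Rfxap rose from 11.2 ± 0.641 to 19.8 ± 0.305 (0.83, SE 0.065, adjusted p = 1.04e-07, edgeR). Rfxank was at 23.8 ± 1.49 and 27.0 ± 3.00 CPM with no call (adjusted p = 0.203, edgeR). Of the NF-kappa B subunits, Nfkb1 fell (-0.52, SE 0.061, adjusted p = 5.09e-06, edgeR), as did Nfkb2 (-0.43, SE 0.082, adjusted p = 4.02e-04, edgeR), while Rela rose (0.46, SE 0.086, adjusted p = 3.59e-04, edgeR) and Relb was not called (-0.11, adjusted p = 0.348, edgeR). With shCon or shCr EVs edgeR called 1 of these 7 genes, Relb with shCr EVs (0.32, SE 0.098, adjusted p = 0.0213, edgeR), a call lost in a model of only those 2 groups and without untreated replicate 1 or 3 or shCr EV replicate 2 or 3 (highest adjusted p = 0.111). The lowest adjusted p of the rest was 0.085. The interferon genes Ifnb1 and Ifng had 3 to 13 and 1 to 14 counts in a library, too few to test.

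Chaperones of the endoplasmic reticulum went the other way to Tapbp with CrOE EVs. In a list of 14 genes for peptide loading and trimming, 9 were higher and 4 lower there, against 2 higher and 6 lower with shCon EVs and 2 higher and 5 lower with shCr EVs. In the last of these comparisons 10 were lower without shCr EV replicate 1, and 1 was higher without that library or any 1 of the untreated ones. Without shCr EV replicate 1, 3242 of all 14566 tested genes were higher and 3456 lower. Without an untreated library 2021 to 2600 of 14548 to 14551 genes were higher. With all libraries 36.7% of all tested genes were higher and 37.0% lower with CrOE EVs, 18.0% and 20.2% with shCon EVs, and 18.4% and 18.8% with shCr EVs. Calr, the loading chaperone calreticulin, rose from 1449 ± 37.6 to 5456 ± 149 CPM (1.91, SE 0.053, adjusted p = 4.24e-12, edgeR). Pdia3, the disulfide isomerase that works with tapasin, rose from 792 ± 53.6 to 3223 ± 109 CPM (2.02, SE 0.087, adjusted p = 2.47e-10, edgeR). Both serve the folding of many secreted proteins, and both were lower than in untreated cells with shCon EVs (-0.57 and -0.35, adjusted p = 2.99e-06 and 0.0054, edgeR). Erap1, which trims peptides to fit class I molecules, moved in the same directions as Tapbp. It was at 47.1 ± 4.12 CPM in untreated cells, 69.8 ± 1.82 with shCon EVs (0.57, SE 0.090, adjusted p = 3.22e-04, edgeR), 61.3 ± 8.53 with shCr EVs (adjusted p = 0.00526) and 29.4 ± 1.06 with CrOE EVs (-0.68, SE 0.092, adjusted p = 1.99e-05, edgeR). Tapbpl, a relative of tapasin, fell from 30.5 ± 2.91 to 20.4 ± 0.961 CPM with CrOE EVs (-0.58, SE 0.077, adjusted p = 1.71e-05, edgeR).

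Of 16 other class I and class I-like chains, 15 were tested. With shCon EVs 10 were higher and 1 lower, with shCr EVs 14 higher and 0 lower, and with CrOE EVs 0 higher and 10 lower. With shCr EVs the number higher was 9 without untreated replicate 1, 9 without untreated replicate 3 and 9 in a model of only those 2 groups, and 1 was lower without shCr EV replicate 1. Of all genes 2078 of 14549, 2021 of 14551 and 1776 of 13625 were higher in those fits, and 3456 of 14566 lower in the last. With all libraries, higher and lower calls made up 18.0% and 20.2% of all tested genes with shCon EVs. They were 18.4% and 18.8% with shCr EVs, and 36.7% and 37.0% with CrOE EVs. H2-Q4, a chain of the Q region, was at 41.7 ± 6.35 CPM in untreated cells, 103 ± 5.20 with shCon EVs (1.30, SE 0.16, adjusted p = 3.28e-05, edgeR), 114 ± 14.4 with shCr EVs and 12.6 ± 3.35 with CrOE EVs (-1.72, SE 0.17, adjusted p = 7.88e-07, edgeR). H2-T23 encodes Qa-1, a ligand of inhibitory receptors on NK cells. It was at 6.62 ± 1.10 CPM in untreated cells and 10.1 ± 0.565, 11.8 ± 2.57 and 1.13 ± 0.171 with shCon, shCr and CrOE EVs, a call each time (adjusted p = 0.00854, 9.17e-04 and 8.46e-08, edgeR). Other genes hold 38.4% of the 31-base stretches of H2-Q4 and 24.45% of those of H2-T23, so the values of both are uncertain. Mr1, which shows vitamin metabolites to MAIT cells, was the chain that fell with shCon EVs, from 24.4 ± 1.17 to 17.0 ± 0.772 CPM (-0.52, SE 0.088, adjusted p = 4.95e-04, edgeR).

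Between shCr and shCon EVs 3 of these chains were called, all higher with shCr EVs, and 1 was called without shCon EV replicate 2 or shCon EV replicate 3. With all libraries 5.22% of all tested genes were higher with shCr EVs and 3.51% lower. Without those replicates 377 of 14476 and 384 of 14546 genes were higher. H2-T10 was at 153 ± 10.2 against 118 ± 0.363 CPM (0.37, SE 0.060, adjusted p = 0.00205, edgeR). It shares 47.6% of its 31-base stretches with H2-T22, so counts may be split between them and their values are uncertain. H2-T22 and Mr1 were the others (adjusted p = 0.021 and 0.0161, edgeR), and either call was lost with some libraries left out (highest adjusted p = 0.088 and 0.0814).

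**Figure D5:**
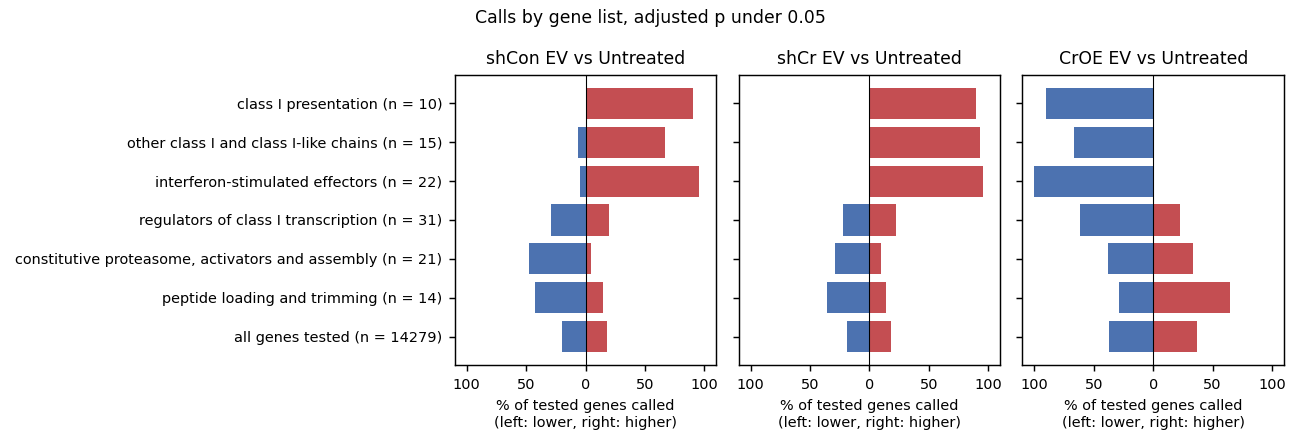
Percent of the tested genes of each list called higher (right) or lower (left) than in untreated cells by edgeR at an adjusted p under 0.05, for each kind of EV. The class I presentation genes are 9 of 10 higher with shCon and shCr EVs and 9 of 10 lower with CrOE EVs, while the calls among all 14279 genes are about evenly split.

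A list of 22 interferon-stimulated effectors, none of them among the 10 genes, had 21 higher and 1 lower (Ifitm3) with shCon EVs, 21 higher and 0 lower with shCr EVs, and 22 lower with CrOE EVs. For all tested genes the shares higher and lower were 18.0% and 20.2%, 18.4% and 18.8%, and 36.7% and 37.0% in the same order. Median log2 fold changes of the effectors were 0.81, 0.96 and -2.99, beside 0.61, 0.62 and -1.82 for the class I genes. The 5 genes outside the list of 10 whose pattern over the 12 libraries was most like its mean (Pearson's r on scaled log2 CPM) were Tor3a (0.997), Ddx60, Naglu, Mvd and Tdrd7 (each 0.995). Tor3a was at 125 ± 11.3 CPM in untreated cells (SD, n = 3), 221 ± 17.8 with shCon EVs, 250.5 ± 29.1 with shCr EVs and 43.9 ± 1.33 with CrOE EVs.

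Within groups the 10 genes were often high or low together in a library. All 10 were above their group mean in untreated replicate 2, by 0.10 on average on the log2 scale, and 1 was in untreated replicate 3. All 10 were above it in shCon EV replicate 2 and none in shCr EV replicate 2 (-0.13 on average) or CrOE EV replicate 1 (-0.22). Over all tested genes the median deviation of a library lay between -0.013 and 0.022. With any 1 library left out, 8 to 9 of the 10 were called higher than in untreated cells with shCon EVs, and 9 with shCr EVs. Of all 14474 to 14566 tested genes, 1896 to 2647 were higher in these fits with shCon EVs and 2021 to 3242 with shCr EVs. With CrOE EVs 9 were called lower each time, beside 5053 to 5227 of all 14423 to 14551 tested genes. Without CrOE EV replicate 1 H2-D1 was called higher. In that fit 5012 of all 14423 tested genes were higher than in untreated cells and 5053 lower.

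Lyz2, a lysozyme gene listed as a myeloid marker, moved with the class I genes. It was at 46.9 CPM on average in untreated cells, 78.0 with shCon EVs, 146 with shCr EVs and 1.25 with CrOE EVs. The 14 immune markers together summed to 46.0 to 55.8, 77.5 to 90.1, 125.6 to 191 and 3.84 to 5.11 CPM in these groups, and to 2.62 to 5.42 CPM in any library without Lyz2. Of the 14, 6 could be tested, and with CrOE EVs 1 was higher than in untreated cells and 3 were lower, against 36.7% and 37.0% of all tested genes. Besides Lyz2 the lower ones were Csf1r (-1.28, SE 0.23, adjusted p = 1.97e-04, edgeR) and Coro1a (-2.17, SE 0.27, adjusted p = 9.65e-06, edgeR), and the higher one was Fcgr1, from 0.112 to 0.732 CPM (adjusted p = 5.38e-04, edgeR). There were at most 7 counts of Ptprc, 1 of Cd3e and 1 of Adgre1 in a library, but 2 to 14 of Itgam and 23 to 84 of Csf1r. The part of these markers in the changes of the class I genes was not tested.

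Related sequence limits the reading of the heavy chains. Of their 31-base stretches, 22.8% for H2-K1 and 26.7% for H2-D1 occur in another gene in GENCODE M21, with 11.1% and 13.8% in each other, and B2m, Psmb9, Psmb10 and Nlrc5 had none. The deposited values of B2m and Psmb10 were whole numbers in all 12 libraries, and those of H2-K1 and H2-D1 in 0. Exons of Tap1 and Psmb9 overlap on opposite strands, as do those of Tap2, Tapbp, Psmb8 and Nlrc5 with other genes. The library kit keeps the strand, but whether it was used in counting is not given in the sources used here. Classical class I genes vary between mouse strains, and the strain of the 3T3 line is not in the labels. Its effect on the levels was not tested.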

How the data were processed

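The authors deposited estimated counts per gene and library, unscaled: 39.6% of the values were not whole (tolerance 1e-06). The submitters' processing notes name featureCounts and mm39. The aligner, the annotation and the use of strand are not given in the sources used here. Columns were assigned by name. Those headed Cripto were taken as the CrOE libraries by elimination, the other 3 groups having columns of their own. Rows whose symbol had turned into a date (27) held at most 0.259% of a library.

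Values were rounded to whole numbers, where the planned design had foreseen counts. After filterByExpr 14279 genes were left. Libraries were scaled by TMM, and edgeR 4.0.16 (R 4.3.3) fitted all 12 with a mean per group (8 residual degrees of freedom). Quasi-likelihood F-tests were adjusted after Benjamini and Hochberg, and the code was tested on simulated data. SEs are the fold change over the root of F. Lengths are exon unions of GENCODE M21 (GRCm38), and no coordinate was carried to mm39. Subunit ratios had 0.5 counts added. Members and lists were chosen with earlier results of these data known. Named were the 10 members, genes of the fixed lists, and the 5 genes most like the members. The alternatives tried were DESeq2 1.42.0, median-of-ratios factors in edgeR, other filters on low counts, the replicate number as a block, a model of 2 groups, and each library left out. Recounting the calls of each list under these settings was chosen after seeing the data. Having 3 libraries a group limits the precision.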

Additional observations from a re-analysis of the deposited data

How the results depend on the processing

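Of 72 recomputed counts of called class I genes, 70 stayed within 1.5 times the reported value. The other 2 were for shCr against shCon EVs, where DESeq2 called 1 gene in place of 0 and leaving out a library gave 0 to 1. Of 714 recomputed log2 fold changes of single genes, 702 kept their direction and side of the threshold. Signs turned in 6 values without a call. For shCr against shCon EVs with a library left out, Tap1 ran from -0.069 to 0.14, Tap2 from -0.088 to 0.081, Psmb8 from -0.0083 to 0.21 and Nlrc5 from -0.23 to 0.036, with Tap2 also at -0.0061 without shCon EV replicate 1. For shCr EVs against untreated cells Tap2 ran from -0.0002 to 0.18. The cause was not tested. All 90 recomputed differences of subunit ratios moved by less than 1 SD. Among these, ratios without length and the replicate block cannot move a difference between group means, so they are no check. Leaving out 1 of 3 libraries cannot move a group mean by as much as the SD of that group, so those values could not fail either. Only a changed number of added counts could have moved a difference further. Psmb9 has no value under a minimum of 10 counts in every library, because CrOE EV libraries hold fewer. The replicate numbers did not pair the libraries: 5 of 18 same-numbered pairs correlated above 0.1 (r from -0.20 to 0.32), and 1 library correlated best with its own number in every other group. With the replicate block, 9 class I genes were called in each comparison with untreated cells, 0 between shCr and shCon EVs and 10 in each remaining one. Among all 14279 genes 2710 were higher than in untreated cells and 2981 lower with shCon EVs. With shCr EVs it was 2744 and 2785, and with CrOE EVs 5315 and 5342. For shCr against shCon EVs 755 were higher and 526 lower. For CrOE EVs 5297 were higher and 5214 lower than with shCon EVs, and 5375 and 5302 than with shCr EVs. Depth limits Psmb9 with CrOE EVs.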

Other observations

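Class II presentation, which fibroblasts do not normally run without interferon gamma, was looked at in a list of 10 genes, 4 of which could be tested. With CrOE EVs 1 was higher than in untreated cells and 3 were lower, against 36.7% and 37.0% of all tested genes. The class II chains H2-Ab1 and H2-Eb1 had 0 counts in all 12 libraries and H2-Aa had at most 1. Ciita, the class II counterpart of Nlrc5, had 4 to 15 counts in a library and was lower with CrOE EVs (-1.68, SE 0.44, adjusted p = 0.00362, edgeR), as was H2-DMb1 (-3.03, SE 0.47, adjusted p = 6.80e-05, edgeR). Cd74, the invariant chain of class II molecules, was at 5.30 ± 0.321 CPM in untreated cells (SD, n = 3) and 15.7 ± 1.83 with CrOE EVs (1.57, SE 0.11, adjusted p = 2.34e-08, edgeR). It was not called with shCon EVs (6.14 ± 0.557 CPM, adjusted p = 0.163, edgeR) or shCr EVs (5.50 ± 0.378 CPM, adjusted p = 0.753). H2-DMa, a class II loading factor, fell in each comparison, from 9.16 ± 1.24 CPM in untreated cells to 6.89 ± 0.603, 7.03 ± 0.984 and 6.03 ± 0.171 with shCon, shCr and CrOE EVs (adjusted p = 0.019, 0.0252 and 6.23e-04, edgeR). The call with shCon EVs was lost without untreated replicate 3, shCon EV replicate 1 or shCon EV replicate 3 (highest adjusted p = 0.0916). The call with shCr EVs was lost without untreated replicate 1, untreated replicate 3 or shCr EV replicate 3 and in a model of only those 2 groups (highest adjusted p = 0.114).

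Fcgrt encodes the neonatal Fc receptor, a class I-like chain that also pairs with B2m. With CrOE EVs it fell from 64.2 ± 1.95 to 11.6 ± 1.28 CPM (-2.46, SE 0.074, adjusted p = 8.85e-12, edgeR), while the log2 fold change of B2m was -0.52. With shCr EVs Fcgrt was at 81.3 ± 4.29 CPM (0.34, SE 0.067, adjusted p = 0.00146, edgeR).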
